A study of Mus musculus with 10 samples.

Results

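The genes described here are 33 mouse genes of meiosis and of later germ cells. They were followed through single cells of the in vitro differentiation of primordial germ cell-like cells (PGCLC). The list was chosen by known roles but with earlier results of these data known, so counts of its members are a description. All 33 were found among the 27998 genes of the E14Tg2a table and among the 32285 genes of the R1 table. Single-cell RNA-seq with a droplet 3′ protocol counted unique molecular identifiers (UMIs), so that each molecule captured in a cell was counted once. There were 2782 E14Tg2a cells from 8 libraries and 3115 R1 cells from 2 libraries.

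All 8 E14Tg2a libraries came from wild type mouse embryonic stem cells (ESC) or their derivatives. ESC were sampled in 2i medium (inhibitors of MEK and GSK3β with LIF; 2i ESC) and in serum with LIF (S+L ESC). Epiblast-like cells were sampled after 1, 2 and 3 days in Activin A and bFGF (d1, d2 and d3 EpiLC), and epiblast stem cells (EpiSC) after prolonged passaging in Activin A and bFGF. Embryoid bodies cultured with BMP4, SCF, LIF and EGF, in which PGCLC arise beside other cell types, were sampled after 2 and 4 days (d2 EB and d4 EB). The R1 libraries were d4 EB of wild type R1 cells and of Mll3/4 dCD cells, an R1-derived line whose MLL3 and MLL4 proteins lack histone methyltransferase activity. Every condition had 1 library and dCD was 1 line, so there was no replicate error and no test between conditions, and genotype, cell line and library, or stage and library, cannot be told apart. Intervals given below cover counting error only, and a group of cells was called higher or lower where its level differed at least 2-fold and both groups together held at least 10 UMIs of the gene.

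Meiosis is the pair of divisions by which germ cells become haploid. Homologous chromosomes are first held along an axis of meiosis-specific cohesin and HORMA-domain proteins, are then joined by the synaptonemal complex, and recombine. In the same cells piRNAs, small RNAs bound by PIWI proteins, silence transposons. In the mouse most of these genes are silent in somatic tissues and switch on only in germ cells, after primordial germ cells have reached the gonad, and DNA methylation and the repressor complex PRC1.6, whose subunits MGA and MAX bind E-boxes and whose subunit E2F6 binds E2F sites, are known to keep many of them silent elsewhere.

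The promoters of the members carried these letters often. In the 250 bases before the annotated start (RefSeq, build GRCm38.p6), which could be matched for 31 of the 33 members, the E-box CACGTG, which reads the same on both strands, was present in 14 members (45.2%), compared with 6.86% of 27025 genes. The E2F-type site TCCCGC, searched on both strands as TCCCGC or GCGGGA, was present in 11 members (35.5%), compared with 18.8% of all genes. Both motifs, which can share at most 1 base, were present in 5 members (16.1%) and in 1.98% of all genes. The windows of the members also held a median of 14 CpG dinucleotides against 6 over all genes, so these shares compare promoters of unlike base composition. A match is a description of the letters, and binding was not measured in these libraries.

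The following stretches, all 5′ to 3′ on the strand of the gene and all ending before the annotated gene begins, are shown as examples of the motifs in members of different roles that are described below. Capitals mark every E-box or E2F-type site in the stretch shown. The positions are, in the same order, chr10:88459514-88459568 (+), chr3:95559627-95559676 (+), chr3:102936159-102936224 (-), chrX:134476504-134476569 (-), chr3:40708748-40708813 (+), chr5:135350046-135350111 (-), chr15:88982744-88982783 (+), chr1:166238932-166238994 (-), chr15:85131969-85132034 (-) and chr6:125286165-125286230 (-).
Sycp3: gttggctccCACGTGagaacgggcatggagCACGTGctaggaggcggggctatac
Hormad1: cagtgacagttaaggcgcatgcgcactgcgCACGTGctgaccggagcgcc
Sycp1: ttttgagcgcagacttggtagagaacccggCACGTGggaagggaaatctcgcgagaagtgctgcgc
Taf7l: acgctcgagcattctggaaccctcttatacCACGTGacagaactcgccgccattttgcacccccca
Slc25a31: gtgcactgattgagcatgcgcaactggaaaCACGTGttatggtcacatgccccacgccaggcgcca
Fkbp6: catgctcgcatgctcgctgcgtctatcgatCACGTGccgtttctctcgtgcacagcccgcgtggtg
Mov10l1: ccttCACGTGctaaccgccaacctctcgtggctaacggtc
Mael: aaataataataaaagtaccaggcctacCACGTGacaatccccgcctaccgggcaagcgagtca
Smc1b: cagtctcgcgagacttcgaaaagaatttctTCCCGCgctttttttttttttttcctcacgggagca
Tuba3a: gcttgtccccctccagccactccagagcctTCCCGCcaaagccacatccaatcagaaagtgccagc
The *Sycp3* stretch holds 2 E-boxes, and the E-box of *Hormad1* begins 20 bases before the annotated gene. *Stra8*, *Dazl*, *Syce1* and *Asz1* were among the 11 members with neither motif in these 250 bases (35.5%, against 76.3% of all genes). For *Stra8*, however, the bases searched begin at chr6:34920698, inside the gene as annotated by GENCODE (from 34920163). The bases before that start were not searched. The bases searched for *Meioc* and *Tdrd5*, counted above with an E2F-type site, and for *Stag3*, counted with an E-box, also lie inside the GENCODE gene. So do those for *Tex101*, which had neither motif. For some other members, among them *Tuba3b*, *Rec8* and *Ddx4*, part of the bases searched lies inside the gene.

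At least 28 of the 33 members had a UMI in every library but EpiSC, where 15 did. A library held between 8757170 UMIs (2i ESC) and 22887974 UMIs (dCD), and the median cell between 11751 (dCD) and 36750 UMIs (d1 EpiLC). Any pair of E14Tg2a libraries shared at most 2 cell barcodes, and the R1 libraries shared 0. *Kmt2c* and *Kmt2d*, which encode MLL3 and MLL4, were transcribed in both R1 libraries (47.5 CPM in WT and 53.8 CPM in dCD for *Kmt2c*, 29.4 and 29.1 CPM for *Kmt2d*), where CPM stands for UMIs per 1000000 UMIs of the library or group of cells. These levels do not check the genotype, since the dCD alleles still make both proteins.

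The summed level of the 33 members differed more between culture states than along the EpiLC series. Members summed to 223.7 CPM in 2i ESC (95% exact Poisson interval 213.9 to 233.8), 299.3, 447 and 355 CPM after 1, 2 and 3 days as EpiLC, 119.6 CPM in EpiSC, 120.0 and 115 CPM in d2 and d4 EB, and 471 CPM in S+L ESC (458 to 485). The central element gene *Syce2* made up much of these sums. Without it, the sums were 111 CPM in 2i ESC, 162, 225 and 199 CPM in the 3 EpiLC libraries, 11.3 CPM in EpiSC, 56.3 and 51.4 CPM in d2 and d4 EB, and 314 CPM in S+L ESC. Thus S+L ESC stood highest in both sums, but with *Syce2* its interval overlapped that of d2 EpiLC (434.9 to 459.8). EpiSC and both EB libraries were alike with *Syce2*, and EpiSC was over 4-fold below any other E14Tg2a library without it. For 15 of the 33 members the highest E14Tg2a library was S+L ESC, in 7 of them with an interval apart from that of the next library, and for 24 members the lowest was EpiSC.

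**Figure D1:**
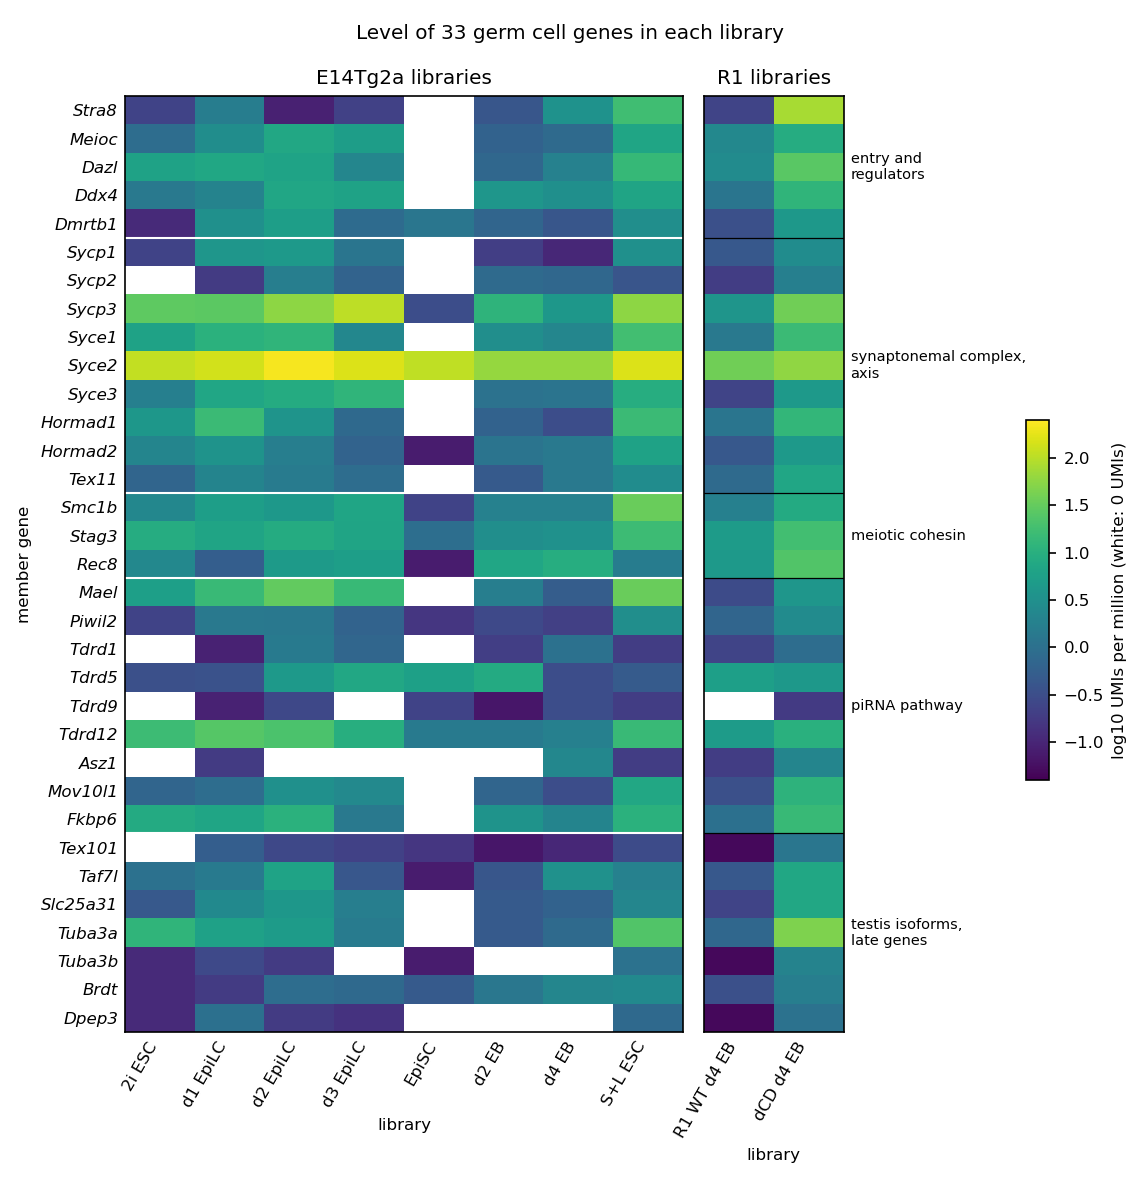
The heatmap gives the level of each of the 33 members (rows, grouped by role) in each of the 10 libraries (columns; E14Tg2a and R1 drawn apart because they come from different chemistries) on a log10 colour scale of CPM, with white for 0 UMIs. The EpiSC column is white for 18 members, and the dCD column is brighter than the R1 WT column for nearly every row.

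Among the regulators of meiotic entry and germ cell RNA, *Stra8* (chr6:34920163-34939344, + strand, GRCm38), the gatekeeper of meiotic entry that responds to retinoic acid, was low except in S+L ESC. *Stra8* was at 0.228 CPM in 2i ESC, 1.64, 0.0896 and 0.213 CPM in d1, d2 and d3 EpiLC, 0 in EpiSC (a count of 0 allows up to 0.235 CPM), 0.410 and 3.44 CPM in d2 and d4 EB, and 17.4 CPM in S+L ESC. After each cell was thinned to 15374 UMIs, 20.1% of S+L ESC cells held a *Stra8* UMI (95% Clopper-Pearson interval 15.7 to 25.2), against 0.448% of 2i ESC cells. Without thinning, 0 of 373 EpiSC cells held one, which allows a share of up to 0.804%. *Dazl* (chr17:50279395-50293636, - strand), an RNA-binding protein that licenses germ cells for gametogenesis, was at 6.17 CPM in 2i ESC, 7.37, 6.36 and 2.20 CPM in the EpiLC series, 0 in EpiSC, 0.751 and 1.87 CPM in d2 and d4 EB and 14.1 CPM in S+L ESC. *Ddx4*, the germ cell RNA helicase also known as Vasa, was at 1.37 CPM in 2i ESC, 2.00, 7.08 and 6.25 CPM in the EpiLC series, 0 in EpiSC, 3.89 and 3.12 CPM in d2 and d4 EB and 6.63 CPM in S+L ESC. So *Ddx4* was highest in d2 EpiLC and *Dazl* in S+L ESC, but for *Ddx4* the intervals of the highest and the next library overlapped. Of the other regulators, *Meioc*, which extends meiotic prophase, reached 7.53 CPM in d2 EpiLC, and *Dmrtb1*, a transcription factor of spermatogonia, 5.29 CPM in d2 EpiLC. *Dmrtb1* was 1 of the 5 members with more than 6 UMIs in EpiSC (16 UMIs, 1.25 CPM).

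Among the genes of the synaptonemal complex and the chromosome axis, *Sycp3* (chr10:88459569-88473236, + strand), the lateral element protein, was higher at each later day of the EpiLC series. *Sycp3* was at 28.8 CPM in 2i ESC, 27.4, 57.2 and 104.7 CPM in d1, d2 and d3 EpiLC, 0.313 CPM in EpiSC, 11.7 and 4.06 CPM in d2 and d4 EB and 56.3 CPM in S+L ESC. A *Sycp3* UMI was found in 69.9% of thinned d3 EpiLC cells (65.1 to 74.4) and in 0.831% of EpiSC cells (0.172 to 2.41), so most d3 EpiLC cells held it. *Syce2* was at 112 CPM in 2i ESC, 138, 221.9 and 156 CPM in the EpiLC series, 108 CPM in EpiSC, 63.7 CPM in both d2 and d4 EB and 158 CPM in S+L ESC, and was the only member above 10 CPM in EpiSC.

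*Syce1*, a further central element gene, was at 6.17 CPM in 2i ESC, 10.6, 12.4 and 2.27 CPM in the EpiLC series, 0 in EpiSC, 3.00 and 2.19 CPM in d2 and d4 EB and 17.8 CPM in S+L ESC. *Syce3*, also of the central element, followed *Sycp3* in being highest in d3 EpiLC, with 1.71 CPM in 2i ESC, 7.09, 8.61 and 12.1 CPM in the EpiLC series, 0 in EpiSC, 1.09 and 1.15 CPM in d2 and d4 EB and 9.21 CPM in S+L ESC. Unlike for *Sycp3*, the intervals of the highest and the next library, S+L ESC, overlapped for *Syce3*. *Hormad1*, the HORMA-domain axis protein, instead peaked earlier. It was at 4.11 CPM in 2i ESC, 15.5, 3.68 and 0.781 CPM in d1, d2 and d3 EpiLC, 0 in EpiSC, 0.614 and 0.312 CPM in d2 and d4 EB and 15.6 CPM in S+L ESC, where d1 EpiLC and S+L ESC did not differ beyond their intervals. The other members of this group, *Sycp1* (transverse filament), *Sycp2* (lateral element), *Hormad2* (axis) and *Tex11* (a crossover protein encoded on the X chromosome), stayed between 0 and 6.14 CPM in all 8 libraries.

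The genes of meiotic cohesin did not share 1 pattern. *Smc1b*, the meiosis-specific SMC subunit, stood out in S+L ESC. It was at 2.28 CPM in 2i ESC, 5.36, 4.21 and 6.89 CPM in the EpiLC series, 0.235 CPM in EpiSC, 1.84 and 1.87 CPM in d2 and d4 EB and 33.8 CPM in S+L ESC. *Stag3*, the meiotic SA subunit, was at 9.02 CPM in 2i ESC, 6.64, 8.61 and 6.60 CPM in the EpiLC series, 0.940 CPM in EpiSC, 3.00 and 3.33 CPM in d2 and d4 EB and 15.9 CPM in S+L ESC. *Rec8*, the meiotic kleisin, had its highest levels in EB and one of its lowest in S+L ESC, the reverse of its partners. It was at 2.398 CPM in 2i ESC, 0.546, 4.66 and 5.40 CPM in the EpiLC series, 0.0784 CPM in EpiSC, 7.03 and 9.37 CPM in d2 and d4 EB and 1.58 CPM in S+L ESC.

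In the piRNA pathway, *Mael*, a protein of germ cell granules, was at 5.48 CPM in 2i ESC, 15.0, 31.2 and 14.5 CPM in the EpiLC series, 0 in EpiSC, 1.71 and 0.521 CPM in d2 and d4 EB and 33.7 CPM in S+L ESC. *Tdrd12*, a Tudor-domain protein of secondary piRNA production, was at 15.9 CPM in 2i ESC, 25.2, 20.9 and 9.73 CPM in the EpiLC series, 1.49 CPM in EpiSC, 1.43 and 1.77 CPM in d2 and d4 EB and 14.7 CPM in S+L ESC. *Fkbp6*, an immunophilin-family partner of HSP90 in piRNA loading, was at 8.45 CPM in 2i ESC, 6.73, 10.6 and 1.35 CPM in the EpiLC series, 0 in EpiSC, 3.62 and 2.08 CPM in d2 and d4 EB and 10.6 CPM in S+L ESC. These 3 members were low in EpiSC. *Mael* and *Tdrd12* were low in EB as well, while *Fkbp6* was lower in d3 EpiLC than in either EB library. *Tdrd5*, a Tudor-domain protein of germ cell granules, had another order of libraries, being low in both kinds of ESC and present in EpiSC. It was at 0.343 CPM in 2i ESC, 0.364, 4.48 and 7.67 CPM in the EpiLC series, 5.72 CPM in EpiSC, 8.33 and 0.312 CPM in d2 and d4 EB and 0.495 CPM in S+L ESC. The helicase gene *Mov10l1* reached 7.52 CPM in S+L ESC, *Piwil2*, which encodes the PIWI protein MILI, 2.97 CPM in S+L ESC, and *Asz1*, whose product lies on mitochondria beside the granules, 2.29 CPM in d4 EB with 0 UMIs in 5 of the 8 libraries. *Tdrd1* did not exceed 1.43 CPM nor *Tdrd9* 0.312 CPM.

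Of the testis-specific isoforms and late germ cell genes, the alpha-tubulin gene *Tuba3a* (chr6:125278274-125286042, - strand) had the most UMIs. It was at 12.1 CPM in 2i ESC, 5.91, 4.93 and 1.49 CPM in the EpiLC series, 0 in EpiSC, 0.478 and 0.833 CPM in d2 and d4 EB and 23.6 CPM in S+L ESC, thus lower at each later day of the EpiLC series. Its near-identical paralog *Tuba3b* did not exceed 1.09 CPM, and how the counting divided reads between the pair is uncertain. *Taf7l*, a germ cell paralog of a TFIID subunit, reached 6.27 CPM in d2 EpiLC, *Slc25a31*, the testis ADP/ATP carrier, 4.03 CPM in d2 EpiLC and *Brdt*, the testis bromodomain protein, 2.57 CPM in S+L ESC. The membrane dipeptidase gene *Dpep3* and the surface protein gene *Tex101* did not exceed 1.0 and 0.546 CPM. Exons of *Sycp3*, *Tdrd5*, *Tuba3a* and *Dpep3* overlap an annotated gene on the opposite strand.

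Set against 2i ESC, members were more often higher than lower in the EpiLC series and in S+L ESC, and more often lower in EpiSC. These comparisons share the 2i ESC library, so their counts are not independent of each other. At least 2-fold higher were 12 of the 33 members in d1 EpiLC (17.9% of all genes with at least 10 UMIs were), 16 in d2 EpiLC (23.1% of all genes), 15 in d3 EpiLC (25.8%) and 18 in S+L ESC (17.5%). At least 2-fold lower were 2 members in d1 EpiLC (10.3% of all genes), 1 at d2 (9.2%), 7 at d3 (10.5%) and 0 in S+L ESC (4.24%). Between 6 and 8 members had under 10 UMIs in each of these comparisons, and a member could reach that number through the library in which it was high. Over all 33 members, those at 0 UMIs in 1 library being set to the floor of 3, the median log2 ratio was 0.67, 0.99 and 0.90 at d1, d2 and d3 and 1.53 in S+L ESC, where the median over all genes with at least 10 UMIs was 0.21, 0.31, 0.28 and 0.12. The 7 members lower in d3 EpiLC were *Dazl*, *Syce1*, *Hormad1*, *Hormad2*, *Fkbp6*, *Taf7l* and *Tuba3a*, the interval of *Taf7l* including 1. *Tuba3a* was 8.12-fold lower there (95% interval 5.05 to 13.7), while *Sycp3* was 3.64-fold higher (3.18 to 4.18) and *Syce3* 7.09-fold higher (4.18 to 12.9).

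In S+L ESC, the 18 higher members came from every role. *Stra8* was 76.3-fold higher than in 2i ESC (20.8 to 635, against 2 UMIs), *Smc1b* 14.8-fold (9.42 to 24.5), *Mov10l1* 10.98-fold (4.82 to 30.9) and *Mael* 6.14-fold (4.53 to 8.49). Markers of the 2-cell embryo, which rare ESC express, differed between these libraries as well, summing over 8 genes to 23.8 CPM in S+L ESC and 0 in 2i ESC. Their part in the result was not tested.

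EpiSC held UMIs of few members, although their median of 31587 UMIs per cell was close to that of d3 EpiLC (31893). Of the 33 members, 18 had 0 UMIs in EpiSC, 10 had 1 to 6, and 5 had more, namely *Syce2* (1382 UMIs), *Tdrd5* (73), *Tdrd12* (19), *Dmrtb1* (16) and *Stag3* (12). Relative to 2i ESC, 15 members were lower (10.2% of all genes were) and 2 higher (29.8%), the latter *Tdrd5* (16.7-fold, 5.49 to 82.8, against 3 UMIs) and *Dmrtb1* (10.98-fold, 1.71 to 460.5, against 1 UMI). A further 15 members had under 10 UMIs in this comparison. Relative to d3 EpiLC, a comparison added after the data were seen, 21 members were lower (11.2% of all genes) and 0 were higher (13.5%). Here 8 members had under 10 UMIs. *Sycp3* was 334-fold lower (130.2 to 1228), *Mael* at least 61.6-fold and *Syce3* at least 51.7-fold lower when a floor of 3 UMIs is taken for EpiSC, whereas *Syce2* was 1.44-fold lower (1.34 to 1.54) and *Tdrd5* 1.34-fold lower with an interval that included 1 (0.987 to 1.83). Primitive streak markers moved with this result, summing over 6 genes to 357 CPM in EpiSC and 15.8 CPM in d3 EpiLC, and so did endoderm markers (126 and 1.28 CPM). Their part in it was not tested. Of 21 genes for known repressors of germline genes, 1 was higher in EpiSC than in d3 EpiLC (*Tfdp1*) and 0 were lower, with sums of 1405 and 1129 CPM.

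The next comparison concerned PGCLC, which resemble primordial germ cells before the stage at which these genes act. The authors list 135 PGCLC (91 of 537 cells in d2 EB and 44 of 368 in d4 EB), found by clustering and named by PGC markers, and 770 cells remained as other EB cells. *Sycp3*, *Tdrd5* and *Fkbp6* are also on the authors' list of 389 PGCLC genes, which was made on these cells, and are no independent evidence. The sums, counts and shares of members below include them. As the listing implies, all 6 PGC markers were higher in listed PGCLC, with sums of 442 and 46.8 CPM. Naive pluripotency markers summed to 782 and 293 CPM, extraembryonic mesoderm markers to 86.0 and 945 CPM and extraembryonic ectoderm markers to 39.4 and 307 CPM, and the median cell held 26764 and 22980.5 UMIs. Their part in the differences below was not tested.

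Members summed to 283 CPM in listed PGCLC (267 to 300.1) and 85.6 CPM in the other cells (81.6 to 89.7). *Syce2* made up 612 of the 1129 member UMIs in listed PGCLC and 933 of the 1735 in the other cells. Of the 33 members, 16 were at least 2-fold higher in listed PGCLC, where 9.27% of all genes with at least 10 UMIs were, and 3 were lower, where 19.3% of all genes were. The 16 include *Sycp3*, *Tdrd5* and *Fkbp6*, and no count was made without them. For 2 of the 16 higher members (*Dmrtb1*, *Slc25a31*) and all 3 of the lower the interval of the ratio included 1, and 6 members had under 10 UMIs over both groups. The median log2 ratio was 1.5 over all 33 members, with the same floor, and -0.21 over all genes with at least 10 UMIs, and relative to that shift the count of higher members stayed at 16.

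*Stra8* had 33 UMIs in listed PGCLC (8.28 CPM) and 6 in the other cells (0.296 CPM), a ratio of 28.0 (11.6 to 81.6). Nearly all of them came from d4, when listed PGCLC held 30 UMIs against 3 in the other cells (81.1-fold, 25.2 to 415), while at d2 the counts were 3 and 3. The 30 UMIs lay in 6 of 44 cells, so the interval, which treats UMIs as independent, is too narrow. *Dazl* was 11.3-fold higher (4.92 to 28.2), whereas *Ddx4* was not (18 and 69 UMIs, ratio 1.33, 0.742 to 2.25) and *Meioc* had 1 and 16 UMIs (3.15-fold lower, 0.489 to 132).

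Among the structural genes, *Syce2* (612 and 933 UMIs, 3.33-fold, 3.01 to 3.70), *Sycp3* (84 and 126 UMIs, 3.39-fold, 2.54 to 4.50), *Syce1* (4.36-fold, 2.58 to 7.30) and *Syce3* (14.5-fold, 5.90 to 40.6) were higher. *Hormad1* had 12 UMIs in listed PGCLC and 0 in the others, which makes it at least 20.3-fold higher with a floor of 3 UMIs. *Sycp3* differed 2.00-fold at d2 and 18.2-fold at d4. *Stag3* (2.80-fold, 1.68 to 4.57) and *Smc1b* (2.80-fold, 1.42 to 5.34) were higher, and *Rec8* was below the 2-fold rule (43 and 150 UMIs, 1.46-fold, 1.01 to 2.06). *Sycp2*, *Hormad2* and *Tex11* lay between 0.565- and 1.55-fold with intervals that included 1. *Rec8* and *Ddx4* were thus not called.

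In the piRNA pathway, *Tdrd12* (31 and 7 UMIs, 22.5-fold, 9.72 to 60.6), *Fkbp6* (54 and 19 UMIs, 14.4-fold, 8.43 to 25.8), *Mael* (6.65-fold, 3.04 to 14.9) and *Tdrd5* (4.54-fold, 3.14 to 6.55) were higher, and *Asz1* had 1 UMI in listed PGCLC and 21 in the others (4.13-fold lower, 0.665 to 171). *Tdrd5* had 57 UMIs in listed PGCLC and 65 in the others at d2, and 2 and 1 at d4. *Mov10l1* and *Tdrd1* had 3 and 10 UMIs each. The late gene *Tuba3a* had 9 and 6 UMIs (7.62-fold, 2.42 to 26.0), *Slc25a31* 4 and 9, *Brdt* 3 and 37 (2.43-fold lower, 0.769 to 12.3) and *Taf7l* 4 and 34, and *Tuba3b* and *Dpep3* had 0 in both. By day, 9 members were higher and 0 lower at d2 (8.16% and 14% of all genes), and 11 higher and 2 lower at d4 (11.7% and 27.7% of all genes), the latter *Ddx4* (1 and 29 UMIs) and *Asz1*. The intervals of both lower members at d4 and of 1 higher member on each day included 1. Of the higher members, 3 at d2 and 1 at d4 had at least 50 UMIs. On each day 15 of the 33 members had under 10 UMIs. After thinning to 15374 UMIs, 40.3% of listed PGCLC held UMIs of at least 3 members (31.8 to 49.3) and 6.66% of the other cells did (4.95 to 8.73). Of 10 retinoic acid response genes, 6 were lower in listed PGCLC and 0 higher, with sums of 88.5 and 301 CPM.

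The EB cells that were not listed as PGCLC were compared between days after the data were seen. In this comparison 14 of the 33 members had under 10 UMIs. Between d2 (446 cells) and d4 (324 cells), 4 of the 19 members with at least 10 UMIs were at least 2-fold higher at d4. Of all genes with at least 10 UMIs, 15.6% were. Lower at d4 were 4 of these 19 members, and 7.31% of all such genes. *Tdrd5* had 65 UMIs at d2 and 1 at d4 (47.4-fold lower, 8.22 to 1902), *Sycp3* 114 and 12 (6.93-fold lower, 3.82 to 13.8), *Mael* 13 and 0 (at least 3.16-fold lower) and *Syce1* 26 and 9. The median log2 ratio was 0.09 over all 33 members and 0.14 over all genes. *Taf7l* had 5 UMIs in 4 cells and 29 in 7 cells (7.95-fold higher, 3.04 to 26.3 if UMIs were independent), *Asz1* 0 and 21 (at least 9.59-fold higher), *Tdrd1* 1 and 9 and *Tex11* 6 and 12. The intervals of *Syce1* and *Tex11* included 1. Over the same cells primitive streak markers summed to 297 CPM at d2 and 4.68 CPM at d4 and endothelial markers to 19.204 and 257 CPM, and their part was not tested.

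**Figure D2:**
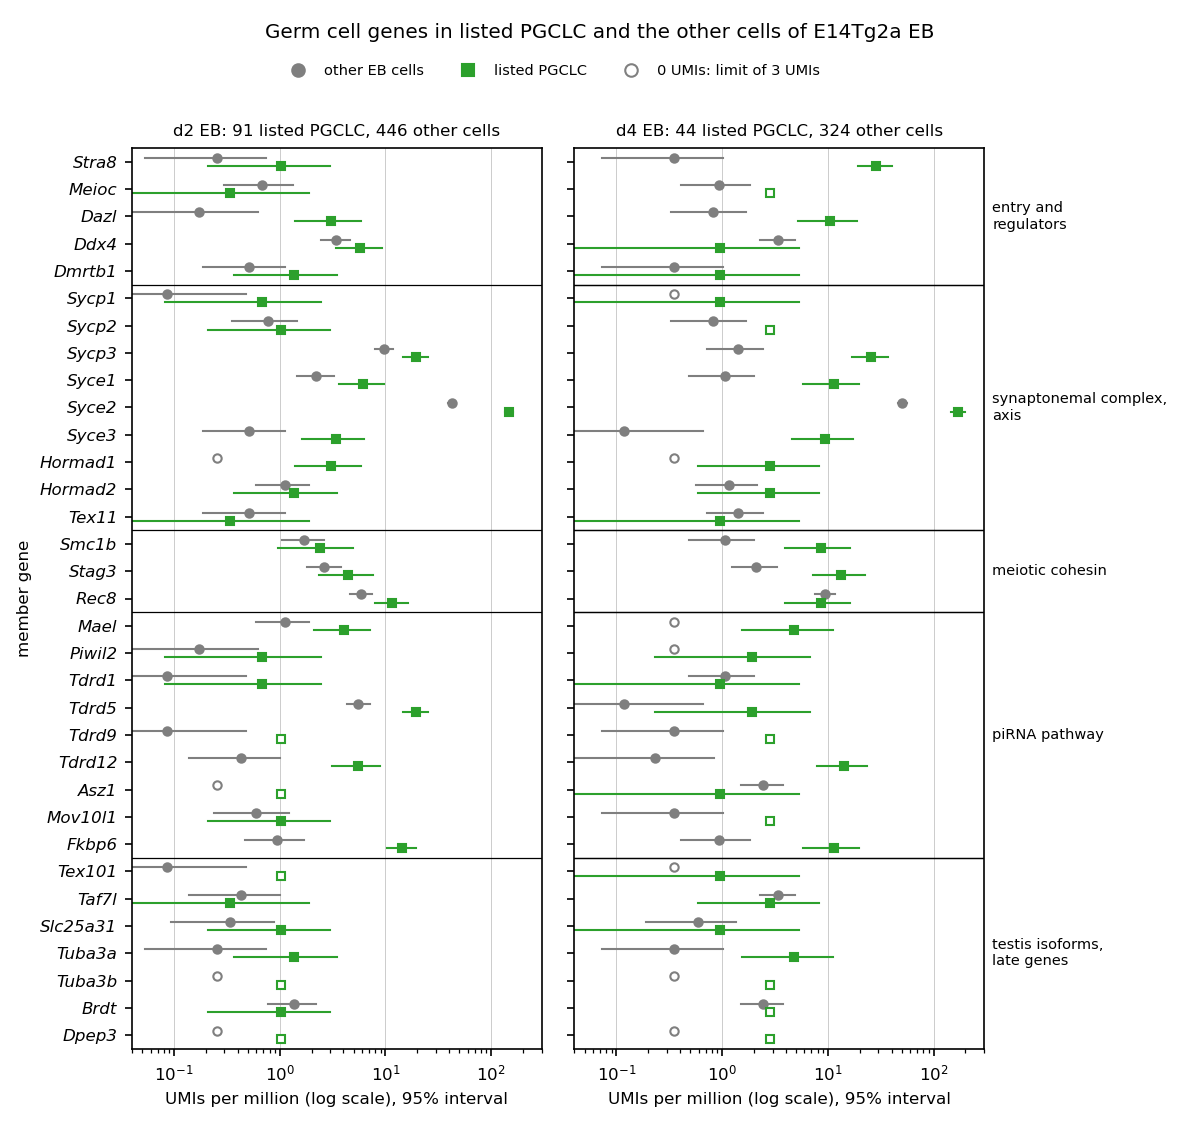
For each member, green squares give the level in listed PGCLC and grey circles the level in the other cells of the same EB library (CPM on a log axis, with 95% Poisson intervals that may run off the left edge; open symbols mark 0 UMIs, drawn at the level of 3 UMIs). The green squares lie clearly to the right for *Syce2*, *Syce3*, *Tdrd12* and *Fkbp6* on both days and for *Stra8* at d4, while *Brdt* overlaps on both days and *Rec8* at d4.

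The R1 libraries addressed the loss of MLL3 and MLL4 catalytic activity, and nearly all members were higher in dCD. Members summed to 1632 UMIs (79.3 CPM, 75.5 to 83.2) in R1 WT d4 EB and 10237 UMIs (447 CPM, 439 to 456) in dCD d4 EB, a ratio of 5.64 (5.35 to 5.95) and of 9.32 (8.68 to 10.0) without *Syce2*. Of the 33 members, 30 were at least 2-fold higher in dCD, where 14.5% of all genes with at least 10 UMIs were, and 0 were lower, where 7.78% of all genes were. The interval of the ratio lay wholly above 2 for 28 of the 30. Because the members were chosen with earlier results of these data known, these counts only describe that list. The members not called were *Syce2*, *Tdrd5* and *Tdrd9*, the last with 0 and 4 UMIs. The median log2 ratio was 3.31 over all 33 members and 0.04 over all genes with at least 10 UMIs.

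Every regulator of meiotic entry was higher. *Stra8* went from 5 UMIs in WT (0.243 CPM) to 1837 in dCD (80.3 CPM, 76.6 to 84.0), a ratio of 330.5 (141 to 1019) and the largest of the 33. *Dazl* had 56 and 618 UMIs (9.93-fold, 7.54 to 13.3), *Ddx4* 25 and 276 (9.93-fold, 6.59 to 15.6), *Dmrtb1* 7 and 96 (12.3-fold, 5.76 to 31.5) and *Meioc* 49 and 202 (3.71-fold, 2.70 to 5.18).

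Of the synaptonemal complex and axis genes, 8 of 9 were higher. *Sycp3* had 79 UMIs in WT and 871 in dCD (9.92-fold, 7.87 to 12.6), *Syce1* 28 and 359 (11.5-fold, 7.84 to 17.6), *Hormad1* 25 and 301 (10.8-fold, 7.19 to 17) and *Syce3* 5 and 103 (18.5-fold, 7.69 to 58.3). *Tex11*, *Hormad2*, *Sycp2* and *Sycp1* were 8.41-, 10.5-, 8.99- and 6.50-fold higher. *Syce2*, already at 37.6 CPM in WT, was at 59.4 CPM in dCD (1.58-fold, 1.44 to 1.73). All 3 cohesin genes were higher, *Rec8* from 92 to 539 UMIs (5.27-fold, 4.22 to 6.65), *Smc1b* from 37 to 194 (4.72-fold, 3.30 to 6.90) and *Stag3* from 100 to 412 (3.71-fold, 2.97 to 4.66).

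Of the piRNA genes, 7 of 9 were higher. *Mov10l1* had 7 and 262 UMIs (33.7-fold, 16.1 to 84.6), *Fkbp6* 21 and 329 (14.1-fold, 9.07 to 23.1) and *Mael* 6 and 89 (13.3-fold, 5.89 to 37.3). *Tdrd12* had 99 and 237 (2.15-fold, 1.70 to 2.75). *Asz1*, *Piwil2* and *Tdrd1* were 11.02-, 3.98- and 3.78-fold higher, while *Tdrd5* had 115 UMIs in WT and 97 in dCD (0.759-fold, 0.573 to 1.003). All 7 testis-specific isoforms and late genes were higher, led by *Tuba3a* with 15 and 1073 UMIs (64.3-fold, 38.8 to 115). *Slc25a31* had 5 and 172 (30.9-fold, 13.0 to 96.5), *Taf7l* 9 and 167 (16.7-fold, 8.58 to 37.1) and *Brdt* 7 and 39 (5.01-fold, 2.22 to 13.3), and *Tuba3b*, *Tex101* and *Dpep3* had 1 UMI each in WT and 46, 28 and 25 in dCD. The 3 members with the largest ratios among those with at least 5 UMIs in WT were thus *Stra8*, *Tuba3a* and *Mov10l1*.

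**Figure D3:**
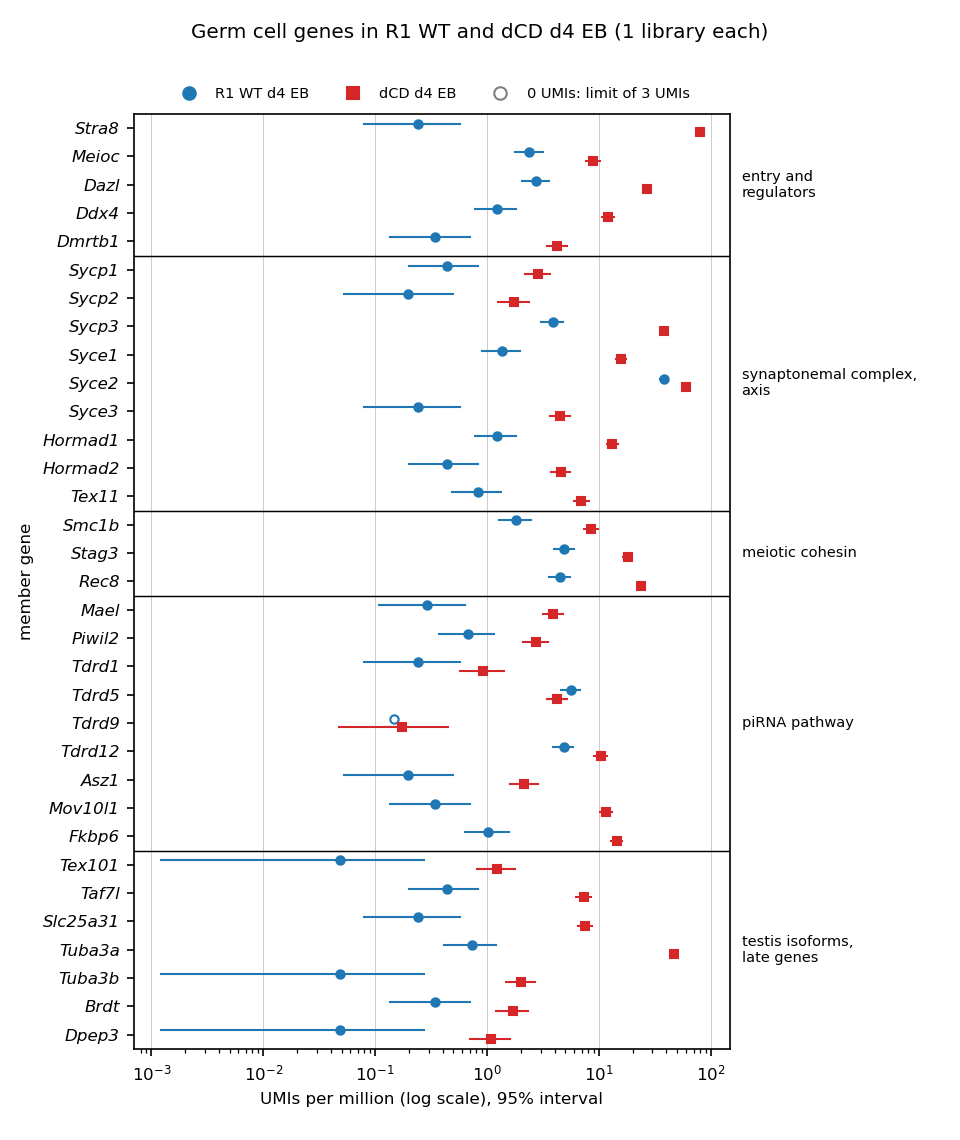
Each row gives 1 member's level in R1 WT d4 EB (blue circles) and dCD d4 EB (red squares) as CPM on a log axis, with 95% Poisson intervals; the open circle marks 0 UMIs, drawn at the level of 3 UMIs. Red lies to the right of blue in all rows but *Tdrd5*, by the largest distance for *Stra8* and *Tuba3a*.

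These sums came from many cells for some members and from fewer for others. In dCD, *Stra8* UMIs were found in 513 of 1699 cells, with at most 18 in 1 cell, and the 17 cells with most held 13.1% of them. For *Taf7l*, by contrast, 1 cell held 20 of 167 UMIs and the 17 highest cells 38.9%. With each R1 cell thinned to 6831 UMIs, which left 1366 WT and 1529 dCD cells, *Stra8* was found in 24.5% of dCD cells (22.3 to 26.7) and 0.0732% of WT cells (0.00185 to 0.407), *Sycp3* in 20.2% and 1.83%, *Tuba3a* in 16.3% and 0.293%, *Rec8* in 14.7% and 3.07%, and *Dazl* in 10.9% and 1.24%. Detection was also read in the 174 dCD cells with UMIs of at least 2 extraembryonic mesoderm markers, a choice made after the data were seen. Their median was 12260.5 UMIs before thinning, against 12411 in all dCD cells used. UMIs of members in these cells may be free RNA of the library or their own transcripts, which was not tested. There *Stra8* was found in 2.30% of cells (0.630 to 5.78), *Sycp3* in 4.02% (1.63 to 8.11), *Tuba3a* in 2.30% (0.630 to 5.78), *Dazl* in 2.87% (0.939 to 6.58) and *Rec8* in 9.20% (5.35 to 14.5). For *Rec8* this interval overlapped that of all dCD cells (13.0 to 16.6), and for the other 4 it lay below.

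Some other genes of the same processes were also higher in dCD. Their lists hold no member but were likewise chosen with earlier results of these data known. Of all genes with at least 10 UMIs, 14.5% were higher and 7.78% lower. That minimum was reached by 23 of the 30 other meiosis genes and 13 of the 16 other piRNA genes. Of 30 other meiosis genes, 13 were higher and 0 lower, among them *Tex12*, a central element gene (1 and 67 UMIs, 60.3-fold, 10.5 to 2415), and *Terb2*, which tethers meiotic telomeres (1 and 50 UMIs, 45.0-fold, 7.71 to 1811), while *Trip13* (0.896-fold, 0.825 to 0.972) and *Mns1* (0.814-fold, 0.730 to 0.906) were not. Of 16 other piRNA genes, 8 were higher and 1 lower, with *Gtsf1* at 22.5-fold (7.40 to 111) and *Gpat2* at 14.1-fold (6.92 to 33.3) and with *Exd1* at 0.847-fold (0.594 to 1.21) and *Tdrd7* at 0.263-fold (0.197 to 0.349). Of 21 repressors of germline genes, 0 were called in either direction, with sums of 1681 CPM in WT and 1684 CPM in dCD. The extremes among them were the DNA methyltransferase genes *Dnmt3b* (1.85-fold, 1.69 to 2.04) and *Dnmt3a* (1.28-fold, 1.18 to 1.39) at the higher end and the PRC1.6 genes *E2f6* (0.655-fold, 0.571 to 0.752) and *Yaf2* (0.597-fold, 0.556 to 0.642) at the lower end. Of 10 retinoic acid response genes, 1 was higher, the receptor gene *Rarb* (2.04-fold, 1.58 to 2.64), and 2 were lower, the binding protein genes *Crabp1* (0.311-fold, 0.283 to 0.340) and *Crabp2* (0.306-fold, 0.276 to 0.339). The list summed to 232 CPM in WT and 113 CPM in dCD. *Crabp1* (89.0 CPM in WT and 27.7 CPM in dCD) and *Crabp2* (70.4 and 21.5 CPM) made up most of the difference. Its relation to *Stra8* was not tested.

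The R1 libraries also differed in cell types. Extraembryonic mesoderm markers summed to 961 CPM in WT and 236 CPM in dCD, 5 of the 6 being lower in dCD, with *Tbx4* (0.0492-fold) and *Pitx1* (0.0678-fold) lowest and *Col1a2* (0.498-fold) and *Bmp4* (0.728-fold) at the other end. Extraembryonic ectoderm markers summed to 21.5 CPM and 215 CPM, which rested on *Rhox6* (26.0-fold) and *Rhox9* (15.7-fold) and not on *Esx1* (1.19-fold, 0.997 to 1.43). Naive pluripotency markers summed to 531 and 746 CPM, with *Esrrb* 2.35-fold and *Zfp42* 2.04-fold higher, *Klf2* at 1.54-fold and *Tbx3* at 0.947-fold. PGC markers summed to 108 and 104 CPM, with *Prdm14* at 1.88-fold, *Dnd1* at 1.11-fold, *Dppa3* at 0.914-fold and *Nanos3* at 0.479-fold. Endothelial markers summed to 56.0 and 46.1 CPM (*Pecam1* 1.43-fold, *Cldn5* 1.09-fold, *Kdr* 0.326-fold, *Cdh5* 0.184-fold), endoderm or gut markers to 22.8 and 15.6 CPM (*Apoa1* 1.21-fold, *Foxa2* 0.945-fold, *Sox17* 0.674-fold, *Ttr* 0.450-fold) and primitive streak markers to 25.2 and 22.6 CPM (*Eomes* 1.98-fold, *T* 1.10-fold, *Fgf8* 0.894-fold, *Evx1* 0.548-fold). The part of cell types in the members' levels was not tested as a whole. Markers of the 2-cell embryo summed to 0.0486 CPM in WT and 34.6 CPM in dCD, with 0 UMIs of *Tmem92*, *Zscan4d*, *Zscan4c* and *Usp17lc* in WT and levels at least 68.1-, 67.5-, 40.5- and 35.7-fold higher in dCD. Leaving out all cells with UMIs of at least 2 of the 8 markers of the 2-cell embryo, 30 dCD and 0 WT cells, left 30 members higher and a summed ratio of 5.55 (5.27 to 5.85). Cells with fewer than 2 of these markers detected stayed in, and the part of such cells in the members' levels was not tested.

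Members were also compared within cells that shared markers of a type, chosen after the data were seen as cells with UMIs of at least 2 markers of a list after thinning. A cell can hold markers of several types and then counts in each, and cells that share markers may lie in different clusters in WT and dCD, which were not compared here. In cells with PGC markers (164 WT and 135 dCD cells) members summed to 249.98 CPM in WT and 585 CPM in dCD, a ratio of 2.34 (2.13 to 2.58), and in cells with naive pluripotency markers (436 and 781 cells) to 134 and 561 CPM, a ratio of 4.18 (3.91 to 4.49). In cells with extraembryonic mesoderm markers (720 and 174 cells) they summed to 39.7 and 119.9 CPM, a ratio of 3.02 (2.60 to 3.51). The part of free RNA of the dCD library in this ratio was not tested. In cells with endothelial markers (42 and 23 cells) the ratio was 0.655 with an interval that included 1 (0.392 to 1.06), and likewise in cells with primitive streak markers (32 and 20 cells, 1.32, 0.899 to 1.95). Cells with PGC markers were also the WT cells in which members were most abundant, at 249.98 CPM compared with 39.7 CPM in those with extraembryonic mesoderm markers.

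In single dCD cells several members were often detected together. After thinning, 36.6% of dCD cells (560 of 1529, 34.2 to 39.1) held UMIs of at least 3 members, and 2.27% of WT cells did (31 of 1366, 1.55 to 3.21). At least 1 member was found in 75.3% of dCD and 32.0% of WT cells, and at least 5 in 15.1% and 0.0732%. At most 10 members were found in a dCD cell and 5 in a WT cell. In the E14Tg2a table, thinned to 15374 UMIs and so not comparable with the R1 values, the share with at least 3 members was 34.5% in 2i ESC, 59.2%, 76.3% and 53.2% in d1, d2 and d3 EpiLC, 0.554% in EpiSC, 12.1% and 11.2% in d2 and d4 EB and 88.4% in S+L ESC.

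**Figure D4:**
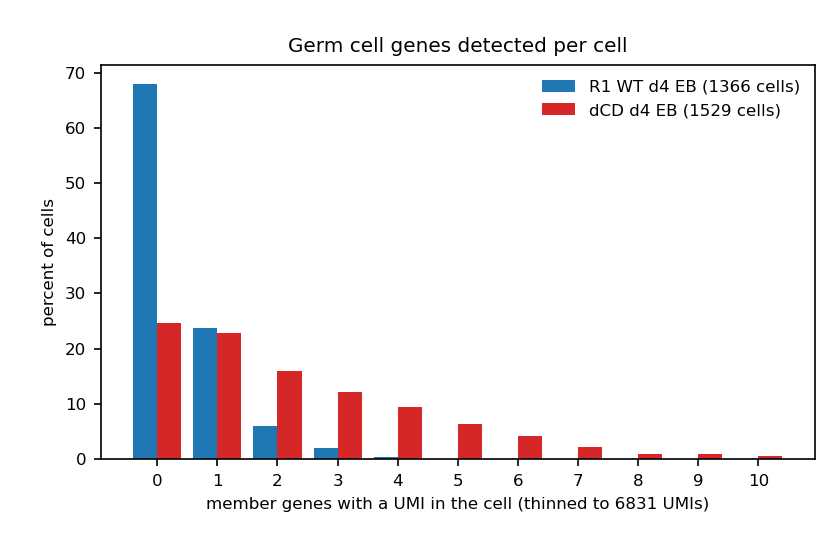
Bars give the percent of cells (y axis) with a given number of the 33 members detected (x axis) in R1 WT d4 EB (blue, 1366 cells) and dCD d4 EB (red, 1529 cells), every cell thinned to 6831 UMIs. The WT bars fall from 68.0% at 0 members to 1.90% at 3, while the dCD bars fall slowly from 24.7% at 0 and reach 10 members.

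Pairs of members were found in the same dCD cell more often than the product of their separate shares gives. Summed over all pairs, 5517 co-detections were observed where the product gives 3498, a ratio of 1.58, and without *Syce2* the ratio was 1.73. The WT library, with far fewer co-detections (194 observed, 97.2 from the product), had a ratio of 2.00, so co-detection above the product was not particular to dCD. Of 162 pairs with a product of at least 5 cells, 149 were above 1, 35 were at 2 or more, and the median was 1.61. Pairs of other genes were not counted in this way, so these values cannot be read as particular to the members.

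Cells with a *Stra8* UMI (374 dCD cells) illustrate this. Of them, 36.9% held *Sycp3* (32.0 to 42.0) compared with 14.8% of dCD cells without *Stra8* (12.8 to 16.99). *Tuba3a* was found in 34.5% and 10.4%, *Dazl* in 22.7% and 7.10%, and *Dmrtb1* in 8.29% and 0.779%, the last pair having the highest ratio of all (3.17). *Dazl* was above 1 in all 18 of its pairs (median 2.03), as was *Syce1* in all 16 (1.85). *Rec8* was instead above 1 in 14 of 21 pairs (median 1.09), *Syce2* in 23 of 26 (median 1.15) and *Tdrd5* in 2 of 5 (median 0.911), the 3 lowest medians among members with at least 5 pairs. *Stra8* with *Sycp2* (2 cells observed, 5.14 from the product) and *Tdrd5* with *Tuba3a* (3 and 6.68) had the lowest ratios.

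The dCD cells with at least 3 members had a depth close to that of the other dCD cells (median 12500.5 and 12311 UMIs before thinning) and other marker levels. Naive pluripotency markers summed to 983 CPM in them (961 to 1005) and 619 CPM in the other dCD cells (606 to 632), and PGC markers to 140.5 CPM (132 to 149) and 85.5 CPM (80.7 to 90.4). Extraembryonic mesoderm markers were lower, at 56.4 and 337 CPM. Markers of the 2-cell embryo summed to 79.5 CPM (73.3 to 85.9) and 7.70 CPM (6.32 to 9.30), but only 24 of the 560 cells held UMIs of 2 or more of them. The median mitochondrial share was 7.48% and 6.09% of UMIs. The part of any of these in co-detection was not tested.

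WT and dCD cells with many members had unlike PGC marker levels. In WT, PGC markers summed to 40.5 CPM in cells with 0 members (37.2 to 44.1) and 525 CPM in the 31 cells with at least 3 (464 to 591). In dCD the same sums were 37.4 CPM (32.4 to 43.0) and 140.5 CPM (132 to 149). The intervals thus overlapped in cells with no member and lay apart in cells with 3 or more. Of the 31 WT cells with at least 3 members, 19 held UMIs of at least 2 PGC markers after thinning, and of the 560 dCD cells, 81 did. At least 2 naive pluripotency markers were held by 29 of the 31 WT and 375 of the 560 dCD cells.

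**Figure D5:**
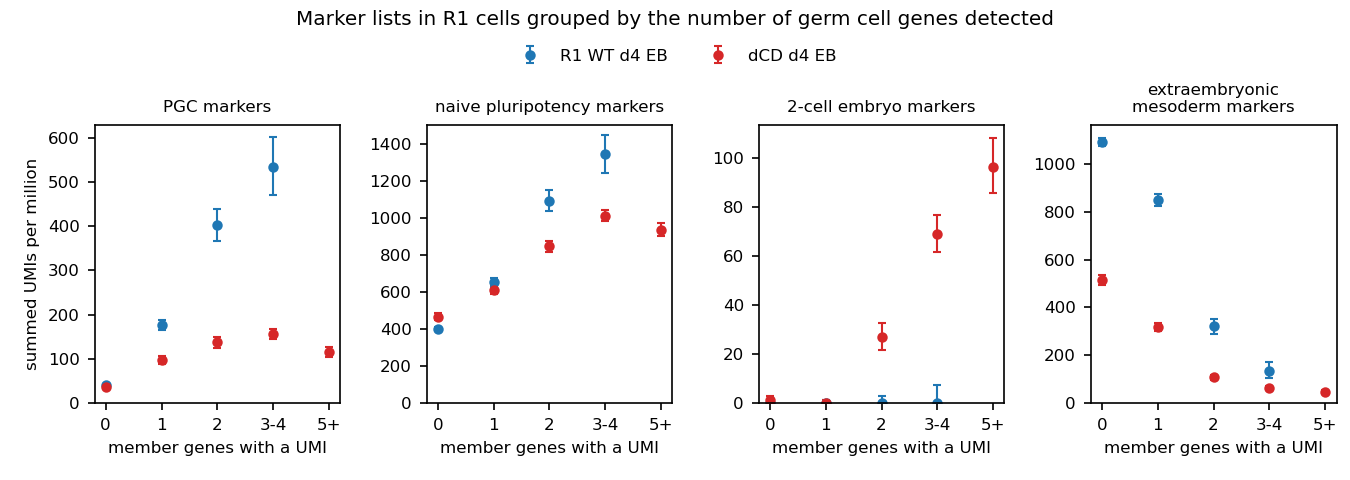
Summed level of 4 marker lists (CPM, 95% Poisson intervals, linear axes from 0) in R1 cells grouped by how many of the 33 members had a UMI after thinning, for R1 WT (blue) and dCD (red) d4 EB; the 1 WT cell with 5 members is not drawn. PGC markers climb to above 500 in WT and stay under 200 in dCD, naive markers are higher in cells with 3 or 4 members than in cells with 0 in both but lower again in dCD cells with 5 or more, markers of the 2-cell embryo are near 0 in WT (1 UMI in all) and appear in dCD, and extraembryonic mesoderm markers fall in both.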

How the data were processed

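Single-cell libraries were made with the droplet 3′ kit v2 for E14Tg2a and v3 for R1, so the tables were not set against each other. The values are the authors' deposited UMI counts, 1 per gene and cell, with no later scaling. For E14Tg2a the submitters' notes name Cell Ranger, and the methods state GRCm38 and aggregation with libraries equalised for mapped reads. For R1 the counting tool is not given in the sources used here, and cells with fewer than 2000 detected genes had been removed. Cells of E14Tg2a were assigned to stages by barcode suffix, as the study's supplement gives them. 1 barcode was shorter than the others after a broken header was rejoined. Symbols came from GENCODE M21 (27645 of 27998 identifiers), and 0 columns were left unused.

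Counts were summed over cells and given per 1000000 UMIs (CPM) with exact Poisson intervals, ratios with exact conditional binomial intervals and shares with Clopper-Pearson intervals (95%). The precision is set by the depths given in the report. A group at 0 took a floor of 3 UMIs. Cells were thinned without replacement to 6831 (R1) or 15374 (E14Tg2a) UMIs, with shallower cells left out (50 WT and 170 dCD cells in R1; 4 to 37 cells per E14Tg2a library). Doublets marked by Scrublet (scanpy 1.11.5; 0.441 to 7.61% of a library) stayed in, and an alternative dropped them. Ratios, intervals and thinning were tested on simulated data. Python 3.11.15, numpy 2.4.6, scipy 1.17.1 and pandas 2.3.3 were used. Annotation was read on GRCm38.

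The members and all lists were chosen with earlier results of these data known. All 33 members are named, the 16 with most UMIs with their value in every library (CPM in E14Tg2a, UMIs or CPM in R1). From every other list the genes with the 2 largest and 2 smallest ratios of dCD to WT (at least 50 UMIs) are named, except for 1 that is not reported here, and of genes on no list the 10 with the largest ratio between dCD cells with at least 3 members and other dCD cells (at least 100 UMIs). No strand or paralog correction was applied, and ChIP-seq, ATAC-seq, methylation and bulk RNA-seq samples were not analysed here.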

Additional observations from a re-analysis of the deposited data

How the results depend on the processing

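No paired analysis was possible because every condition had 1 library and no result came from a test. Listed PGCLC and other EB cells came from the same d2 and d4 libraries, whose separate values are given, and elsewhere no replicate could be left out. In dCD against WT d4 EB, the count of members at least 2-fold higher was 24 to 31 and the count lower 0 under all 10 alternatives (added 1 CPM, other minimums of UMIs, centring, UMIs per cell, doublets left out, 1.5-fold and 3-fold, and, chosen after seeing the data, cells with at least 3000 detected genes or without cells holding 2 or more markers of the 2-cell embryo). The summed ratio was 9.32 without *Syce2* and 5.23 with UMIs per cell. In listed PGCLC against other EB cells the count of 16 became 6 with at least 50 UMIs and 9 in d2 EB alone, where fewer members reach the minimum and *Sycp3*, *Stag3* and *Smc1b* were below 2-fold. It was 11 to 20 under the other alternatives. For *Brdt* in d4 EB alone, listed PGCLC held 0 UMIs and the others 21, so that the value of 1.16 is set by the floor of 3 UMIs, an upper bound and not a change of direction.

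Shares of cells with at least 3 members depend on depth and on the number asked for. In dCD the share was 52.7% without thinning, 28.5% at 5000 UMIs, 31.5% without *Syce2*, 52.6% for at least 2 members and 15.1% for at least 5. In WT it was 8.97% without thinning, 1.10% without *Syce2*, 8.27% for at least 2 and 0.0732% for at least 5. The ratio of observed to independent pairs in dCD was 1.73 without *Syce2* and otherwise 1.56 to 1.59. Members under 3 UMIs in a library cannot be told from absent.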

Other observations

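Among genes on none of the lists, the 10 with the largest ratio between dCD cells with at least 3 members and other dCD cells were *Gm8994* (36.0-fold), *Gm21319* (33.9-fold), *Ccser1* (28.2-fold), *Platr31* (20.5-fold), *Gm8300* (19.8-fold, 13.8 to 29.4), *Gm5662* (18.7-fold), *BC080695* (16.1-fold), *4931428L18Rik* (14.1-fold), *Gm12794* (12.9-fold) and *Gm5039* (12.6-fold, 9.48 to 17.1). Of the 8 markers of the 2-cell embryo, *Zscan4d* and *Zscan4c* had 206 and 115 UMIs in these cells, against 4 and 6 in the other dCD cells, *Tmem92* 160 and 55 and *Usp17lc* 109 and 3, while *Tcstv3* was lower (12 UMIs, 1.53 CPM, against 38 UMIs, 2.71 CPM). *Zscan4f*, *Zfp352* and *Tcstv1* had 9 or fewer UMIs in either group. These genes were ranked on the cells that the members selected, so their order is a description.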
